A study of Mus musculus with 49 samples.

Results

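The genes Cpe, Slc25a24, Akap12, Spire1 and Sox4 were followed through every condition of a study of hepatocytes that dedifferentiate in culture. They are 5 of the 46078 Ensembl identifiers in a table of transcript counts, and they were chosen by their values, for a rise in monolayer culture that the choice took to be early and lasting, with their reversal in aggregates named beside it. In the values below, Sox4 was late and Spire1 declined after 1 day. The values of the time course and of the aggregates are therefore given as a description, with no p-value for the 5 genes, and their p-values are given only for 6 other comparisons. The choice had no numerical threshold, so that no genes just outside it can be listed.

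The table holds 49 libraries of 16 conditions, made from RNA of wild-type C57BL/6J mice. Hepatocytes isolated from the livers of 10 week-old adults were measured fresh (FH, n = 3) and after 3 h, 1 day, 2 days, 4 days, 7 days and 14 days in monolayer culture with EGF at 20 ng/mL (n = 3 each), and after 7 days with verteporfin at 0.3 µM, an inhibitor of the Hippo pathway effector Yap, or with its solvent DMSO (n = 2 each). dediHeps (n = 5) are the expandable cells into which such hepatocytes dedifferentiate, kept in the same monolayer culture. From dediHeps came aggregates formed in non-adhesive wells (n = 3), a culture in which they regain hepatocyte features, spherical organoids in Matrigel (dediHep-SO, n = 3) and budding organoids (dediHep-BO, n = 3), for which dediHeps had been transduced with a retrovirus carrying Cdx2, the master transcription factor of the intestine. CLiPs (n = 3) are liver progenitors that small molecules induce from adult hepatocytes, FIPC-SOs (n = 3) are spherical organoids of progenitors from the E13.5 fetal intestine, and ISC-BOs (n = 4) are budding organoids of adult intestinal stem cells, taken from crypts at 10 weeks. The labels do not say which libraries came from separate animals, so that p-values measure only the spread between these libraries, which may be technical.

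Library totals ran from 861047 to 3872936 counts of unique molecular identifiers (UMIs, sequence tags meant to count each captured transcript once), with a median of 1976760. A UMI of 6 bases has 4096 sequences, and 4096 was also the highest count in a library, so that counts of the most abundant transcripts are capped. The highest count of a member was 2813. Sums of abundant markers, as of hepatocytes in FH, may be understated for this reason. Levels below are CPM, counts scaled to a common library size and then adjusted with TMM factors over all 49 libraries, ± is the SD between libraries, and a gene is termed called when the quasi-likelihood F-test of edgeR gave an FDR (the p adjusted after Benjamini and Hochberg) under 0.1 together with a log2 fold change above 2 or below -2. CEL-Seq2 reads only the 3′ ends of transcripts, and levels are compared here between conditions, never between genes. In RNA of whole cultures, fewer cells of a type and less RNA per cell cannot be told apart. The 16 hepatocyte markers summed to between 27180 and 37280 CPM in FH, between 2073 and 2603 CPM after 14 days and between 1226 and 5316 CPM in dediHeps, so that the labelled cell type was present in FH and its markers were low in the later cultures.

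In the GRCm38 assembly Cpe lies on the minus strand of chromosome 8 at 64592542 to 64693054, Slc25a24 on the plus strand of chromosome 3 at 109123149 to 109168457, Akap12 on the plus strand of chromosome 10 at 4266380 to 4359470, Spire1 on the minus strand of chromosome 18 at 67488209 to 67610790 and Sox4 on the minus strand of chromosome 13 at 28948919 to 28953713. The genes thus lie on 5 chromosomes. The lincRNA Gm26735 overlaps Sox4 on the opposite strand, and a processed pseudogene, Gm17669, lies within Spire1 on the opposite strand and reached at most 7.87 CPM in a library. Whether the counting used strand is not given in the sources used here, so that reads of Sox4 and Gm26735 may not be separable.

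The 5 genes belong to separate processes. Cpe encodes carboxypeptidase E, which trims basic residues from the ends of prohormone fragments in secretory granules and is known from endocrine and nerve cells. Slc25a24 encodes a carrier of the inner mitochondrial membrane that exchanges ATP-magnesium for phosphate and is gated by calcium. Akap12 encodes an A-kinase anchoring protein, a scaffold that holds protein kinase A and other signalling enzymes near the membrane and the actin cytoskeleton. Spire1 encodes an actin nucleator that works together with formins and binds myosin V in vesicle transport. Sox4 encodes a transcription factor of the SRY-related HMG-box family, active in many progenitor cells.

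To show the letters in front of genes that are higher in culture than in FH, and since 2 of them, Slc25a24 and Sox4, have an entry in the RefSeq promoter table for GRCm38.p6, the bases upstream of those starts are shown, 5′ to 3′ on the strand of the gene. Capitals mark matches, on either strand, to GGAATG, the core that TEAD factors, the DNA-binding partners of Yap, recognise, to GGGCGG (GC box) and to CCAAT. The first runs over chr3:109122899-109123148 and the second over chr13:28953714-28953949, the part of the entry upstream of the annotated Sox4 gene.
Slc25a24: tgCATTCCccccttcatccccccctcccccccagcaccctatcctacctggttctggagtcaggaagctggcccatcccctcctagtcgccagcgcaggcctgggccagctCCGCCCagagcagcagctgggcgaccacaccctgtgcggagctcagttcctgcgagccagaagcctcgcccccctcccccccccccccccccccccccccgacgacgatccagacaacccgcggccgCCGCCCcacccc
Sox4: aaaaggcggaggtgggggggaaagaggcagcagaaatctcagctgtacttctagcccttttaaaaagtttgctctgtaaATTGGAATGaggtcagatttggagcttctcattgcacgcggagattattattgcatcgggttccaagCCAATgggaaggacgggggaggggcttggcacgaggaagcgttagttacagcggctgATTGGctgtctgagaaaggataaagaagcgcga
GGAATG was found in each, 248 bases before the RefSeq start in Slc25a24 and 168 bases before the RefSeq start in Sox4, where the match overlaps a CCAAT match. The RefSeq start of Sox4 lies inside the annotated gene, so that its distance runs beyond the end of the printed letters. GGAATG occurs in 12.6% of 32851 promoter windows of 250 bases and in 12.1% of windows of 236 bases. Slc25a24 held 2 GC boxes, a motif in 32.7% of the windows, and Sox4 held 3 CCAAT matches, a motif in 32.7% of the shorter windows. The AP-1 motif TGANTCA, found in 6.75% of windows of 250 bases, had no match in either. The TATA box TATAAA, found in 12.4% of them, and the cyclic AMP response element TGACGTCA, found in 1.55%, had none either.

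The question of the time course was how transcripts change as hepatocytes adapt to culture. In it 4 of the 5 genes, all but Sox4, rose steeply from near 0 between 3 h and 1 day. Cpe, Slc25a24 and Akap12 then stood at 57.5% to 61.0% of their highest mean of the time course, and Spire1 was at its peak. Cpe had a count of 0 in all 3 FH libraries and a single count over the 3 libraries at 3 h. At 1 day it stood at 567, 706 and 870 CPM, and at 14 days at 1016, 1361 and 1137 CPM. Every library from 1 day on was thus above every library of FH and 3 h, and pooled over libraries the level at 1 day was at least 633-fold higher than in FH and that at 14 days at least 1030-fold higher, set against a floor of 3 counts over the FH group. From 1 day to 14 days its mean moved between 714 ± 152 CPM and 1171 ± 175 CPM, and each of these neighbouring time points overlapped in range.

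Slc25a24 had 4 counts over the FH libraries and 1 at 3 h. Its 3 libraries at 1 day held 192, 171 and 197 CPM, and those at 14 days 285, 312 and 323 CPM. The ratio of pooled levels to FH was 126 at 1 day, with an exact 95% interval of 48.9 to 461, and 202 at 14 days, with an interval of 78.6 to 741 (counting error only, here and for the ratios that follow). The gene reached 60.8% of its highest mean of the time course at 1 day and 84.5% at 2 days.

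Akap12 was the member with the most counts before culture, 11 over the FH libraries and 27 at 3 h, which came to 3.91, 3.99 and 4.35 CPM in FH in ascending order and to 9.57, 7.12 and 12.8 CPM at 3 h. The groups did not overlap, and the pooled ratio was 2.40 (interval 1.15 to 5.35). At 1 day the libraries spread widely, at 262, 436 and 739 CPM, and at 2 days they held 723, 731 and 1042 CPM. Later means stayed between 700 ± 76.6 CPM at 14 days and 815 ± 32.4 CPM at 7 days, so that Akap12 was near its highest level from 2 days on.

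Spire1 peaked at 1 day and then declined. It had 2 counts in FH and 2 at 3 h, and rose to 315, 188 and 296 CPM at 1 day, a pooled ratio to FH of 362 with an interval of 100 to 2990. At 2 days it stood at 153, 131 and 95.4 CPM, below every library of 1 day, and at 7 days at 52.3, 39.7 and 37.6 CPM. The 14-day libraries, at 49.6, 57.0 and 38.9 CPM, overlapped those of 7 days. Its mean at 14 days was 18.2% of the peak, and the ratio to FH was then 67.4 (interval 18.5 to 560).

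Sox4 was the slow member. It had 4 counts over FH and 11 at 3 h, and at 1 day it held 25.8, 19.3 and 24.3 CPM, a ratio of 15.7 to FH (interval 5.98 to 58.2). The levels were 205, 167 and 104 CPM at 2 days, 550, 385 and 489 CPM at 4 days and 947, 848 and 542 CPM at 7 days. From FH to 4 days all libraries of a time point were above those of the one before, except between FH and 3 h, where they overlapped. At 14 days Sox4 held 724, 1076 and 780 CPM, 568-fold the FH level (interval 222 to 2090), and only 2.69% of that mean had been present at 1 day.

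**Figure D1:**
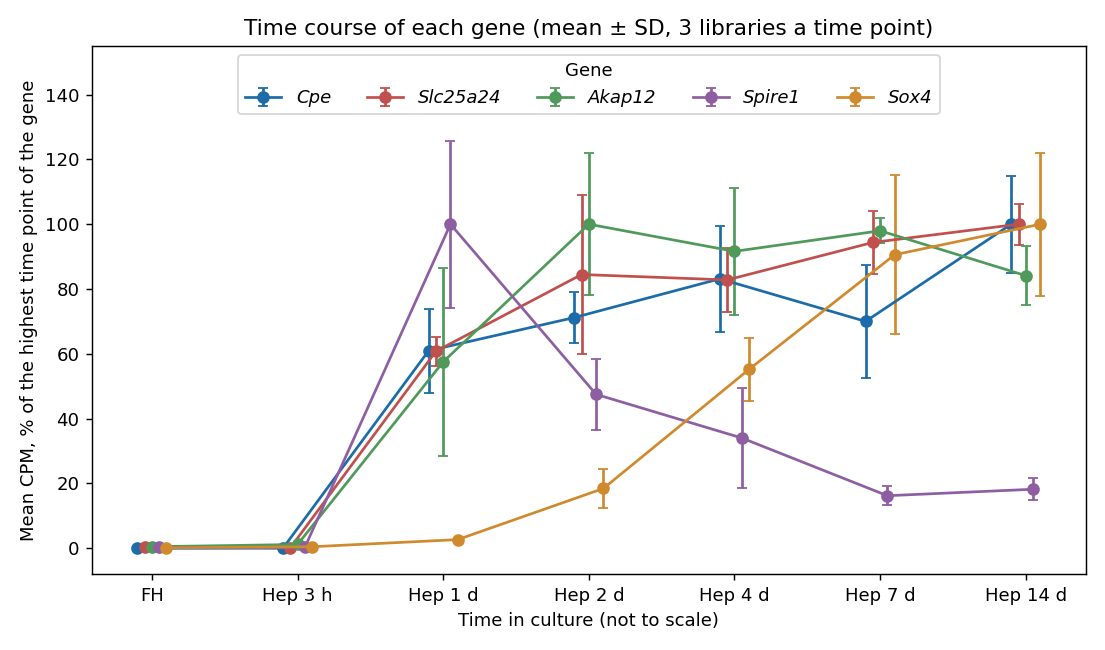
Mean level (± SD, n = 3 libraries) of each gene at 7 points of the time course, as a percentage of the highest mean of that gene; the time axis is not to scale. Cpe, Slc25a24 and Akap12 were at 57.5% to 61.0% at 1 day, Spire1 was at its peak there and at 18.2% by 14 days, and Sox4 climbed from 2.69% at 1 day.

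In the fit of the 21 time course libraries all 5 genes passed both thresholds at 1 day and at 14 days, beside 6.57% of 12443 genes called higher and 10.9% called lower at 1 day, and 14.1% called higher and 15.3% called lower at 14 days. Since the genes were chosen for this rise, nothing is read from that count. The fitted log2 steps, with SE, show where each gene moved. Between 3 h and 1 day the step was 10.53 ± 0.55 for Cpe, 8.60 ± 0.53 for Slc25a24, 8.22 ± 0.58 for Spire1, 5.42 ± 0.40 for Akap12 and 2.32 ± 0.46 for Sox4. For Cpe, Slc25a24 and Spire1 the 3 h side held 1, 1 and 2 counts over the group. Counting intervals of their pooled ratios were 349 to 76800, 92.1 to 20300 and 102 to 3060, so that the order of these steps is not resolved. The largest step of Sox4 came between 1 and 2 days, at 2.78 ± 0.36, followed by 1.60 ± 0.33 between 2 and 4 days. Spire1 had steps of -1.07 ± 0.34 between 1 and 2 days and -1.09 ± 0.34 between 4 and 7 days.

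Markers of other liver cells also moved over the same time. The 14 stellate cell and fibroblast markers summed to between 166 and 255 CPM in FH, where the 5 genes were near 0, to between 52.6 and 126 CPM at 1 day and to between 172 and 458 CPM at 14 days, with Lum at 0 there. Of 9 tested, 2 were called higher at 14 days than in FH and 3 lower, beside 14.1% and 15.3% of all genes. The higher ones were Acta2 (log2 6.805, SE 1.294) and Col1a1 (6.363, SE 1.125), and Dcn (-3.604, SE 0.8324) was among the lower ones. The 11 endothelial markers went from 207 to 366 CPM in FH to between 17.3 and 20.6 CPM at 14 days, with Tek at 0, and the 11 macrophage and leukocyte markers from 83.8 to 296 CPM in FH to between 11.5 and 185 CPM. In dediHeps, where 4 of the 5 genes remained high in mean and Spire1 kept its 14-day level, 8 of 14 stellate cell and fibroblast markers had a count and summed to between 32.3 and 149 CPM, and Lum, Lrat, Pdgfrb, Col1a2 and Col3a1 were at 0. The 10 cholangiocyte markers, which include Sox9, went up, from 22.2 to 129 CPM in FH to between 1215 and 1495 CPM at 14 days. The part of these cells in the levels of the 5 genes was not tested. The 5 endothelial markers with a count in dediHeps summed to at most 19.3 CPM, and Cdh5, Kdr and Stab2 were at 0.

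The DMSO cultures of 7 days are libraries that the choice of genes did not name, and the 5 genes were high in them too. Their levels were mostly not those of the untreated 7-day cultures. Cpe and Slc25a24 were below all 3 of those libraries, Akap12 and Spire1 were above them, and only Sox4 overlapped them. Cpe stood at 588 and 598 CPM, Slc25a24 at 246 and 252 CPM, Akap12 at 1193 and 1107 CPM, Spire1 at 54.3 and 54.0 CPM and Sox4 at 606 and 561 CPM. All of these were above every FH and 3 h library, and for Akap12 they were above every other library of the series.

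**Figure D2:**
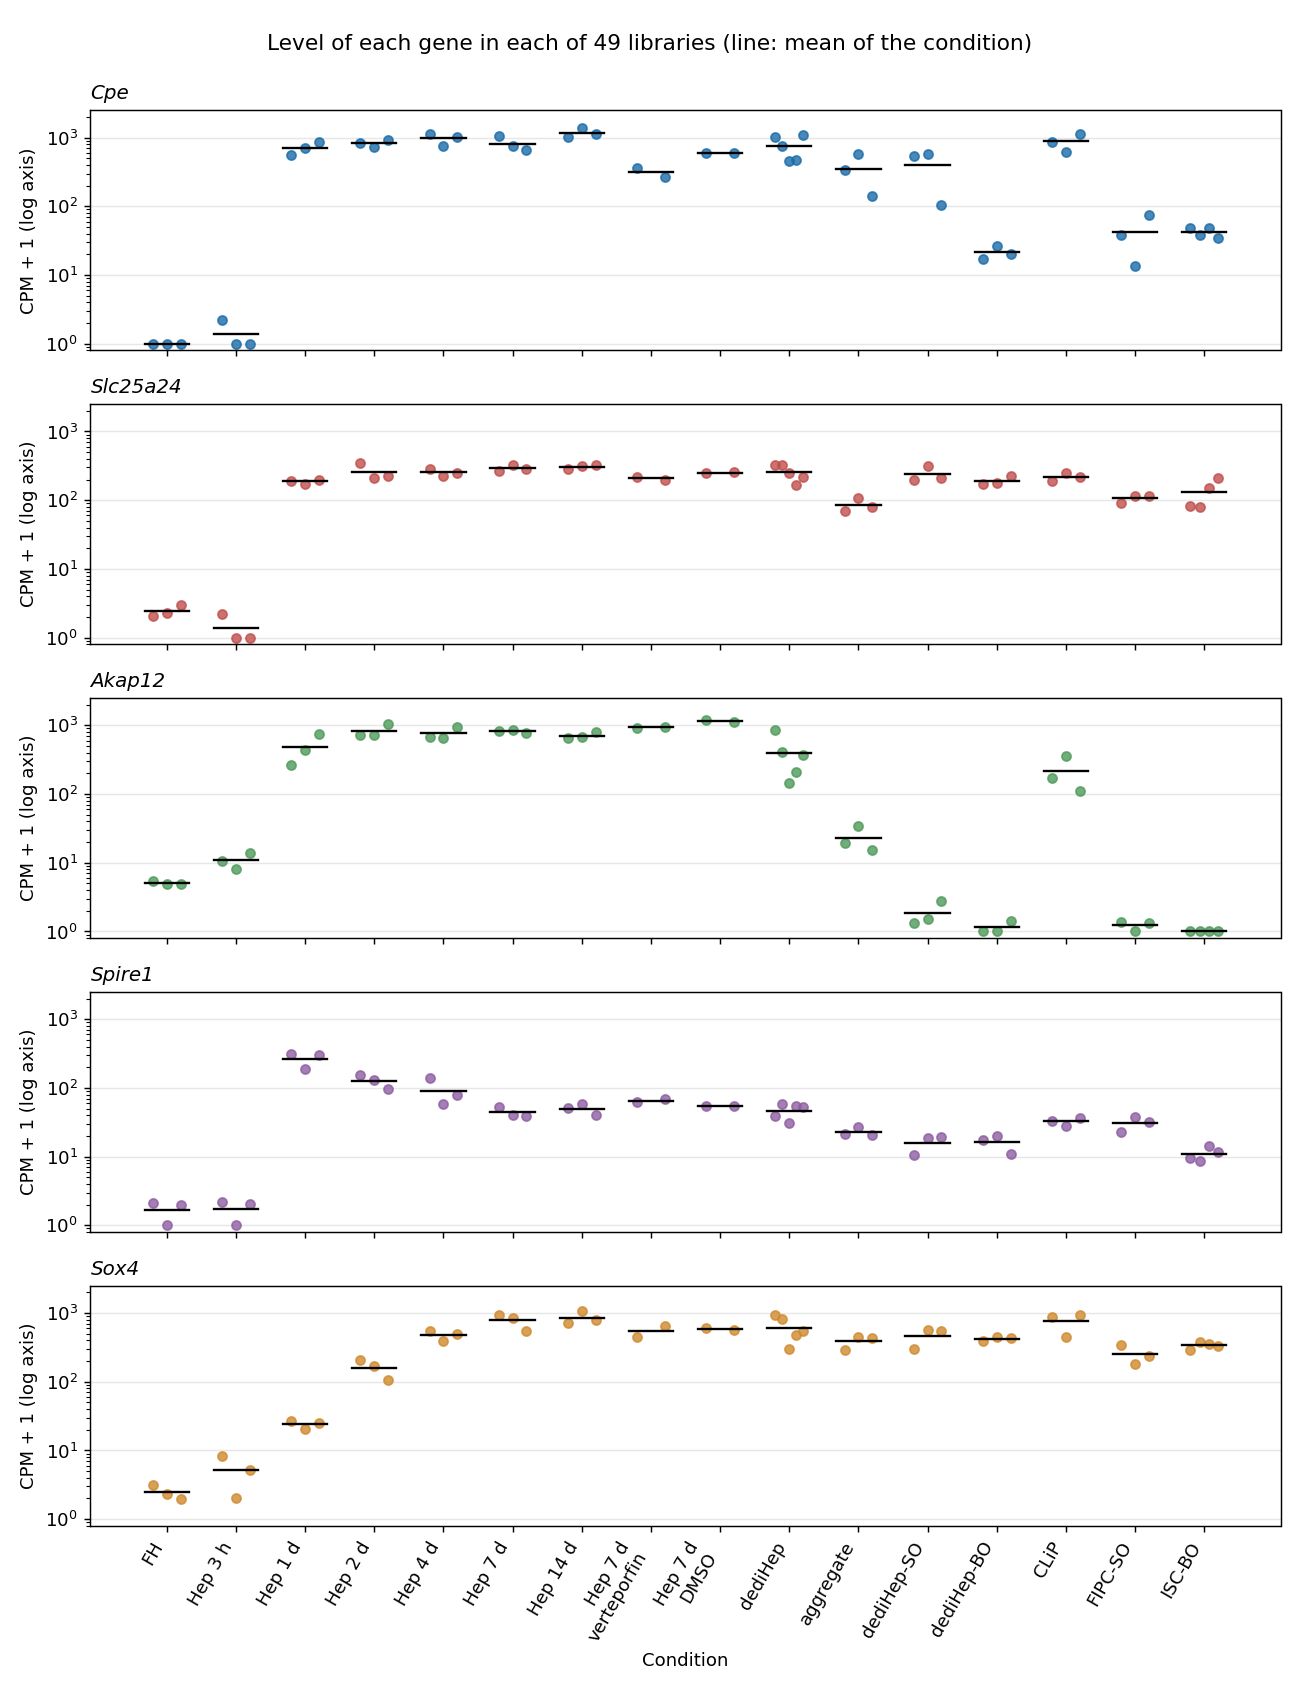
Level of each gene in each library (points, CPM + 1 on a log axis) and mean of the condition (lines) in 16 conditions. Cpe, Slc25a24, Akap12 and Spire1 are near the bottom of the axis in FH and at 3 h and high from 1 day, and Akap12 is at or near 0 in the 4 kinds of organoid.

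Over the 16 conditions the order of levels differed from gene to gene, and most neighbours in it could not be separated. For Cpe the highest mean was that of the 14-day hepatocytes and the next were 4-day hepatocytes at 974 ± 193 CPM and CLiPs at 880 ± 258 CPM, all overlapping. Below the DMSO cultures came dediHep-SOs at 404 ± 260 CPM, aggregates at 353 ± 219 CPM and verteporfin cultures at 316 ± 64.1 CPM, then, past a gap, ISC-BOs at 41.4 ± 7.24 CPM, FIPC-SOs at 40.8 ± 30.4 CPM and dediHep-BOs at 20.3 ± 4.81 CPM. Slc25a24 was the most even gene: its 14 conditions from 1 day on lay between 84.6 ± 19.9 CPM in aggregates and 307 ± 19.2 CPM at 14 days. In these 14 the range of each condition overlapped that of the next in the order, and aggregates were separated from FH. Akap12 was highest in DMSO cultures at 1150 ± 60.8 CPM and fell away in steps, with dediHeps at 398 ± 281 CPM, CLiPs at 214 ± 130 CPM and aggregates at 22.0 ± 9.79 CPM, and every organoid condition was below FH at 4.08 ± 0.23 CPM. Spire1 at its 1-day peak of 266 ± 68.7 CPM was above all other libraries, and its lowest condition after FH and 3 h was ISC-BO at 10.0 ± 2.62 CPM. For Sox4 the order ran from 860 ± 189 CPM at 14 days through dediHeps at 612 ± 255 CPM to FIPC-SOs at 256 ± 82.8 CPM, with overlap at each step, and 2-day, 1-day, 3 h and fresh hepatocytes followed below.

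Aggregates were made to ask whether dediHeps return towards hepatocytes. All 5 genes were lower in the aggregate than in the monolayer of the same dediHep culture in 3 of 3 pairs that share a culture, but by very different factors. Akap12 held 18.6, 33.0 and 14.4 CPM in aggregates against 862, 405 and 206 CPM in their monolayers, 46.4-fold, 12.3-fold and 14.4-fold lower. Slc25a24 held 68.8, 107 and 78.0 CPM against 326, 324 and 168 CPM, 4.73-fold, 3.03-fold and 2.16-fold lower. For both, the 3 aggregates were below all 5 dediHep libraries. Spire1 was 1.91-fold, 2.24-fold and 2.71-fold lower, at 20.1, 25.6 and 19.5 CPM, also with no overlap. Cpe was 3.00-fold, 1.29-fold and 3.32-fold lower, at 340, 578 and 142 CPM, and Sox4 was 3.26-fold, 1.79-fold and 1.11-fold lower, at 285, 452 and 427 CPM. The aggregates of these last genes overlapped dediHep libraries, which ran from 455 to 1074 CPM for Cpe and from 303 to 931 CPM for Sox4.

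In the fit of aggregates and all 5 dediHep libraries the log2 differences, with SE, were -4.14 ± 0.66 for Akap12, -1.56 ± 0.32 for Slc25a24, -1.05 ± 0.47 for Cpe, -1.03 ± 0.32 for Spire1 and -0.63 ± 0.37 for Sox4. With the culture as a block they were -4.25 ± 0.48 for Akap12 and -1.19 ± 0.40 for Cpe. 1 of the 5, Akap12, passed both thresholds, beside 4.39% of all genes called higher and 5.11% called lower, from which nothing is read. On the log2(CPM + 1) scale, which understates changes of low genes, the aggregates had moved 65.2% of the way from dediHeps back to FH for Akap12, 23.4% for Slc25a24, 21% for Spire1, 12.9% for Cpe and 7.32% for Sox4. None of the members was back at the FH level: Cpe in aggregates was at least 331-fold higher than in FH, Akap12 was 5.64-fold higher (interval 3.05 to 11.6) and Sox4 was 272-fold higher (interval 106 to 999). The hepatocyte markers in aggregates summed to between 10290 and 14720 CPM, above the 1226 to 5316 CPM of dediHeps and below the 27180 CPM that was the lowest in FH.

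**Figure D3:**
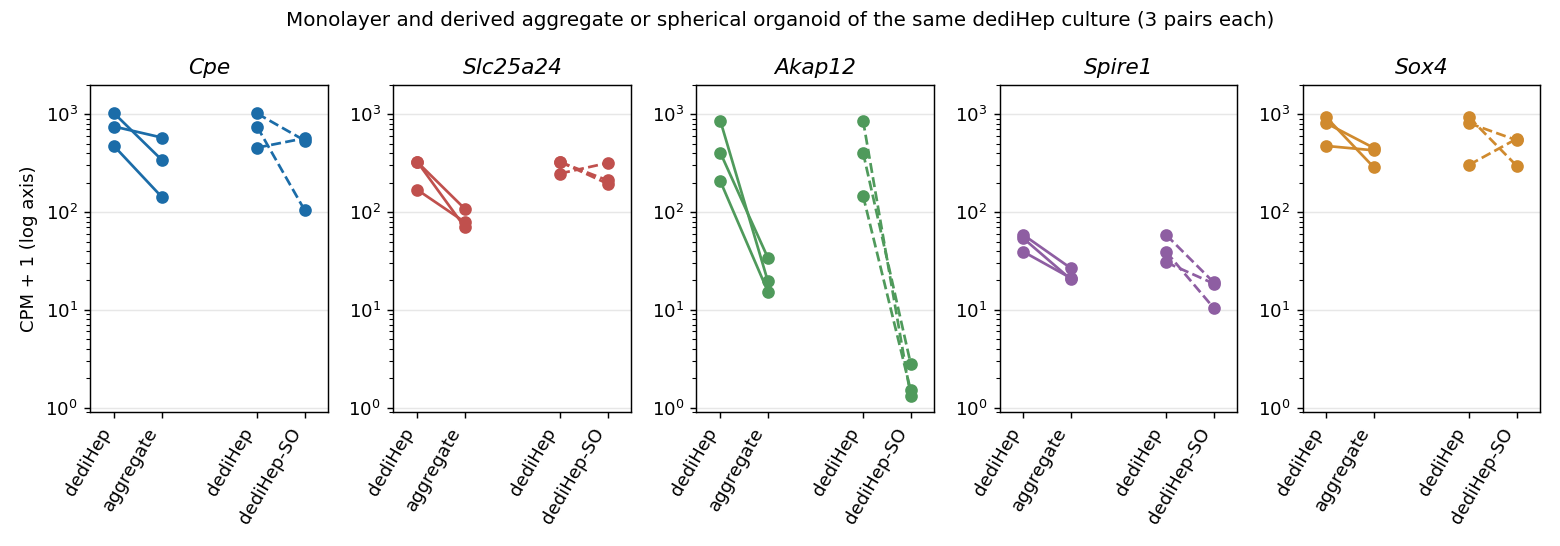
Level (CPM + 1, log axis) in the monolayer of a dediHep culture and in the aggregate (solid lines) or the spherical organoid (dashed lines) from that culture, 3 pairs each. All aggregate lines go down, most for Akap12, which in the organoids is at 1 to 4 counts.

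The comparison of spherical organoids with monolayer dediHeps was not used in the choice of the genes, although the same dediHep libraries also entered the aggregate comparison, so that p-values against dediHeps, here and for CLiPs, are not independent of that choice. It asks what changes when dediHeps are placed in Matrigel with intestinal medium, and among these genes Akap12 differed most. The 3 organoid libraries had 1, 1 and 4 counts, or 0.32, 0.50 and 1.81 CPM, against 862, 405, 146, 206 and 371 CPM in the 5 dediHep libraries, without overlap. The fitted log2 difference was -8.82 (SE 0.93), past both thresholds, and the ratio of pooled counts was 438 with an interval of 201 to 1190. Akap12 passed the low-count filter only through the dediHep libraries, where it is high, so that this is given as a description and the call supports nothing further. The spherical organoids were also lower in Akap12 than aggregates, 28.4-fold by pooled counts (interval 12.7 to 78.8), a difference that was not tested.

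The other 4 genes were not called. Spire1 held 9.45, 17.6 and 18.1 CPM in the organoids and 38.3, 57.5, 29.6, 52.9 and 51.1 CPM in dediHeps. These did not overlap, and the log2 difference of -1.59 (SE 0.38) passed the FDR threshold (edgeR FDR 0.0204) but not the fold threshold. With the dediHep culture as a block its FDR was 0.157, and it was 0.121 without organoid library 1. Cpe varied among the organoids, at 539, 569 and 104 CPM, and its difference of -0.89 (95% interval -2.04 to 0.26, edgeR FDR 0.321) was -0.43 without the third of them, which came from a culture with 749 CPM in monolayer. Sox4 at 296, 561 and 543 CPM and Slc25a24 at 194, 317 and 210 CPM overlapped dediHeps, with differences of -0.38 (interval -1.24 to 0.47) and -0.08 (interval -0.76 to 0.61). In this comparison 4.12% of 11470 genes were called higher and 4.65% lower, and 1 of 5 members was called lower.

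Budding organoids differ from spherical ones by the Cdx2 retrovirus and, per the methods, by the removal of Wnt3a and CHIR99021 from the medium, and these cannot be told apart. Cpe was lower in the budding kind: 16.02, 25.5 and 19.4 CPM, each below every dediHep-SO library. It fell by 4.29 on the log2 scale (SE 0.59, edgeR FDR 0.000694), or 20.3-fold by pooled counts (interval 17.1 to 24.3), and the fall was 4.70 without the spherical organoid library with 104 CPM. Slc25a24 at 168, 177 and 224 CPM, Spire1 at 16.5, 19.0 and 9.91 CPM and Sox4 at 387, 449 and 439 CPM overlapped the spherical organoids. Their log2 differences were -0.34 (interval -0.92 to 0.25), 0.02 (interval -0.87 to 0.92) and -0.14 (interval -0.74 to 0.47), none past the FDR threshold. Akap12 had 0, 0 and 1 counts and was not tested, its counts being below the low-count filter. Of 11301 genes 5.60% were called higher and 5.68% lower, and of the 4 members tested 1 was called lower.

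The same organoid types from intestine were the reference for dediHep organoids. Cpe was higher in dediHep-SOs than in FIPC-SOs, which held 36.7, 12.7 and 73.0 CPM, with a log2 difference of 3.28 (SE 0.73, edgeR FDR 0.0140) and no overlap. Slc25a24, at 88.9, 114 and 113 CPM in FIPC-SOs, was 1.18 higher on the log2 scale in dediHep-SOs (SE 0.29, edgeR FDR 0.0215, and 0.111 without dediHep-SO library 2), past the FDR but not the fold threshold. Spire1 went the other way, at 21.7, 37.3 and 31.0 CPM in FIPC-SOs, a difference of -1.02 (SE 0.38, edgeR FDR 0.0981) that missed the FDR threshold when any of 4 libraries was left out. Sox4 at 346, 183 and 238 CPM in FIPC-SOs gave 0.85 (interval 0.10 to 1.60, edgeR FDR 0.117). Akap12 had 1, 0 and 1 counts in FIPC-SOs and was not tested. 4.92% of 11608 genes were called higher in dediHep-SOs and 3.99% lower, and 1 of 4 tested members was called higher.

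Among budding organoids no member was called by edgeR or DESeq2, and 1 of 4, Cpe, had an unadjusted p under 0.05. ISC-BOs held 47.8, 36.8, 47.4 and 33.7 CPM of Cpe, all above the dediHep-BOs, and the log2 difference was -0.97 (SE 0.28, edgeR FDR 0.0735), under the fold threshold and with an FDR of up to 0.287 when single libraries were left out. Slc25a24 ranged from 78.2 to 211 CPM in ISC-BOs, with a difference of 0.60 (interval -0.16 to 1.35, edgeR FDR 0.318) that was 0.94 with an FDR of 0.0719 without ISC-BO library 4. Spire1 at 8.43, 7.61, 13.49 and 10.5 CPM gave 0.65 (interval -0.13 to 1.42), and Sox4 at 287, 374, 359 and 335 CPM gave 0.38 (interval -0.03 to 0.78). Akap12 had no count in the 4 ISC-BO libraries, at least 11.8-fold lower than in FH with 3 counts over the group as floor. 1.34% of 11303 genes were called higher in dediHep-BOs and 1.71% lower. Enteroendocrine markers, 15 genes that include Chga and Chgb, were high as a sum in the organoid conditions in which Cpe was low. They summed to between 0.315 and 1.36 CPM in dediHep-SOs and to between 133 and 485 CPM in dediHep-BOs. The sums were between 154.8 and 350 CPM in FIPC-SOs and between 744 and 857 CPM in ISC-BOs. Nts of this list went another way and was called higher at 14 days than in FH (log2 8.263, SE 1.194). It was called lower than in dediHeps in dediHep-SOs (-7.67, SE 1.69), aggregates (-4.661, SE 1.187) and CLiPs (-5.283, SE 1.226). The part of these markers in the levels of Cpe was not tested.

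CLiPs were compared with dediHeps because both are progenitors made from adult hepatocytes. None of the 5 genes was called by edgeR or DESeq2, and 0 had an unadjusted p under 0.05. Cpe at 872, 626 and 1142 CPM in CLiPs gave a log2 difference of 0.18 (interval -0.65 to 1.01), Sox4 at 883, 440 and 950 CPM gave 0.26 (interval -0.66 to 1.18) and Slc25a24 at 187, 250 and 219 CPM gave -0.28 (interval -0.98 to 0.41). Akap12 at 172, 360 and 111 CPM gave -0.97 (interval -2.32 to 0.38) and Spire1 at 32.3, 27.1 and 36.1 CPM gave -0.57 (interval -1.30 to 0.17). All 5 ranges overlapped those of dediHeps, and the edgeR FDR ran from 0.421 for Spire1 to 0.848 for Cpe. 1.65% of 11567 genes were called higher in CLiPs and 1.39% lower. Intervals that reach beyond 2 for Akap12 leave differences of the size of the threshold possible at this number of libraries.

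Verteporfin was given to cultured hepatocytes to block Yap, and the comparison with DMSO asks how transcripts differ with it. No member was called by edgeR or DESeq2 and 1 of 5, Cpe, had an unadjusted p under 0.05, while 0.240% of 10400 genes were called higher and 0.0288% lower. Cpe was the member with the widest separation, at 361 and 271 CPM with verteporfin against 588 and 598 CPM with DMSO, a log2 difference of -0.91 (SE 0.23, interval -1.43 to -0.39, edgeR FDR 0.238). With the replicate number as a block, a fit reported further below, Cpe passed the FDR threshold but not the fold threshold. Without verteporfin library 1, which leaves 1 library in that arm, the difference of Cpe was -1.17. Akap12 at 907 and 952 CPM was below both DMSO libraries, with -0.31 (interval -0.75 to 0.12), as was Slc25a24 at 216 and 198 CPM, with -0.27 (interval -0.77 to 0.24). Spire1 at 61.0 and 67.2 CPM was above both, with 0.24 (interval -0.38 to 0.85), and Sox4 at 442 and 644 CPM enclosed them, with -0.11 (interval -0.63 to 0.40).

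**Figure D4:**
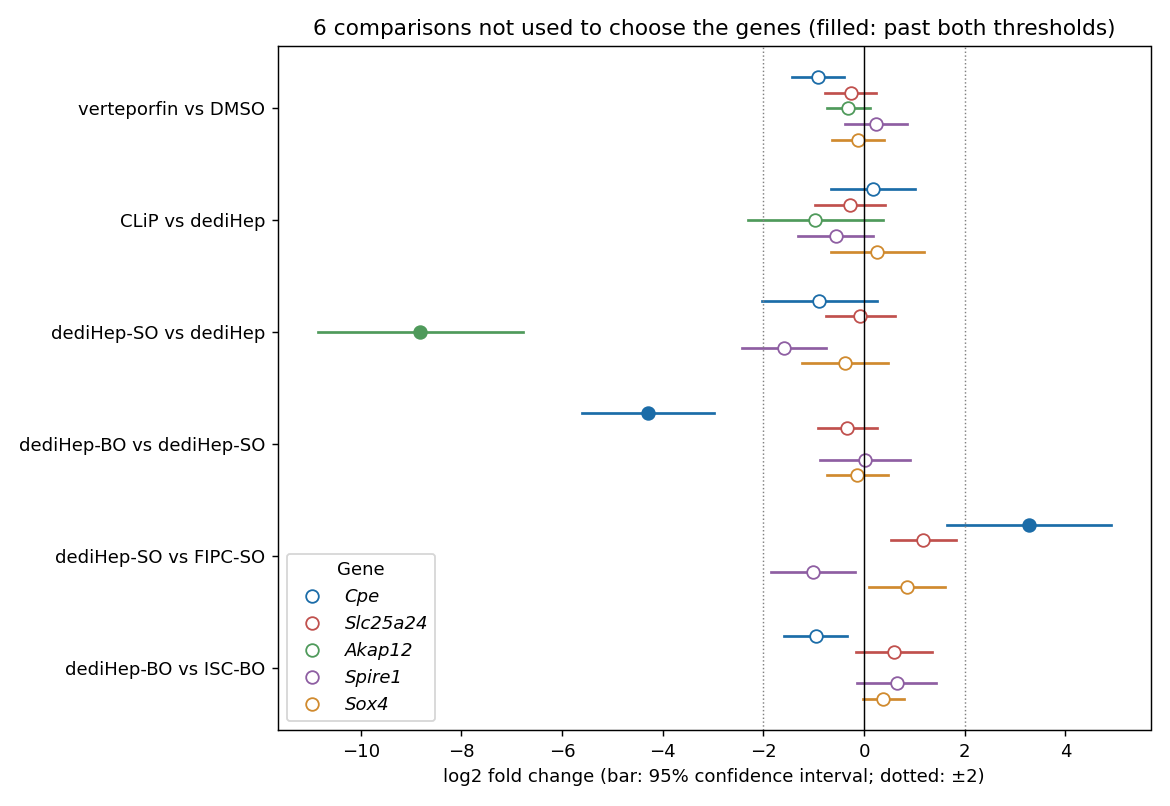
log2 fold change (points) with 95% confidence interval (bars) of each gene in the 6 comparisons other than the time course and the aggregates. Those against dediHeps share libraries with the aggregate comparison and are not independent of the choice of the genes. Filled points passed both thresholds, and Akap12 is absent where it was not tested. In dediHep-SO vs dediHep Akap12 passed the low-count filter only through the dediHep libraries. The filled points are Akap12 at -8.82 in dediHep-SO vs dediHep and Cpe at -4.29 and 3.28 in the comparisons of spherical organoids with dediHep-BO and FIPC-SO.

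Genes of the same processes, in lists written from general knowledge with earlier results of these data known, were set beside each member. A list gene absent from a group passes the low-count filter only through the groups where it is high. The largest values below, against FH or between organoids, are therefore a description. Around Cpe, 24 genes of peptide processing and granule content included 10 tested in the time course. At 14 days 2 of the 10 were called higher than in FH and 2 lower, beside 14.1% and 15.3% of all genes. The higher ones were Ptprn, a membrane protein of dense-core granules (log2 12.43, SE 1.25, edgeR FDR 1.7e-07), and Pam, which amidates peptides (3.95, SE 0.58, edgeR FDR 6.74e-06). Cpn1, a plasma carboxypeptidase made by hepatocytes (-6.61, SE 0.45), and Pcsk7, a proprotein convertase (-2.23, SE 0.86), were called lower, and the list's median was -0.61 beside 0.04 over all genes tested. In dediHep-BOs against dediHep-SOs, where Cpe fell, 4 of 11 tested were called higher and 1 lower, beside 5.60% and 5.68% of all genes. The higher ones were the granins Chgb (9.74, SE 0.88) and Chga (9.52, SE 0.96) and the convertases Pcsk1 (8.73, SE 1.00) and Pcsk5 (9.79, SE 1.33), and the lower one was Pam (-2.86, SE 0.32). Against FIPC-SOs the same 4 genes were called lower in dediHep-SOs, where Cpe was higher, by log2 values from -7.09 for Chga to -9.49 for Pcsk5, and Cpm, a membrane carboxypeptidase, was called higher (2.90, SE 0.31). Of all genes, 3.99% were called lower and 4.92% higher against FIPC-SOs. Both comparisons share the dediHep-SO libraries. None of these 4 genes passed the low-count filter in dediHep-SO vs dediHep. They passed it here only through the other organoids, where they are high, so that their calls support nothing further. Other convertases of the list were not called. Furin had a difference of -1.59 in the first comparison and 0.95 in the second, and Pcsk6 had -1.87 and 0.41, the sign of Cpe. Pcsk7 had 1.59 in the first, against the sign of Cpe, and 0.05 in the second.

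Around Slc25a24, 22 genes of mitochondrial nucleotide carriers and of the calcium uniporter had 20 tested in the time course. 3 of 20 were called higher at 14 days and 6 lower, beside 14.1% and 15.3% of all genes, with a median of -0.09, so that the share called higher was near that of all genes. The higher ones were Slc25a4, an ADP/ATP carrier (6.51, SE 0.40), Mcub, a subunit of the uniporter (7.51, SE 1.34), and Slc25a36, a pyrimidine nucleotide carrier (3.37, SE 0.85). Slc25a42, a carrier of coenzyme A, was among those called lower (-3.96, SE 1.11). The closest relatives of Slc25a24, the ATP-magnesium carriers Slc25a23 (-3.69, SE 0.38) and Slc25a25 (-3.75, SE 0.38), were called lower, as was Slc25a13, an aspartate-glutamate carrier of the urea cycle (-3.72, SE 0.29). In aggregates Slc25a23 was called higher than in dediHeps (2.31, SE 0.49, edgeR FDR 0.0130), while Slc25a24 was lower there. Slc25a25 was called lower in dediHep-SOs than in dediHeps (-3.58, SE 0.57).

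Around Akap12, 23 other anchoring proteins and subunits of protein kinase A had 17 tested, of which 3 were called higher and 0 lower at 14 days, beside 14.1% and 15.3% of all genes, while at FDR under 0.1 alone 4 were higher and 4 lower. These 3 were Ezr, ezrin, which links membrane and actin (6.39, SE 0.43), and the regulatory subunits Prkar1b (7.96, SE 1.39) and Prkar2b (4.09, SE 0.95). Prkar2b was called lower in aggregates than in dediHeps (-2.23, SE 0.52, edgeR FDR 0.0201). No other of the 16 list genes tested there was called, beside 4.39% of all genes called higher and 5.11% lower. In dediHep-SOs against dediHeps, where Akap12 was lower, 0 of 16 tested were called by edgeR, beside 4.12% of all genes called higher and 4.65% lower. Of these 16, 1 was lower at an FDR under 0.1 alone, and 3 had an unadjusted p under 0.05.

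Around Spire1, 28 formins, other actin nucleators and partners in vesicle transport had 21 tested in the time course. At 1 day, the peak of Spire1, 4 were called higher and 1 lower, beside 6.57% and 10.9% of all genes. The higher ones were Fmnl2 (3.19, SE 0.33), Diaph3 (8.05, SE 1.72), Myo5a (3.16, SE 1.01) and Fmnl3 (5.25, SE 2.05), and Rab3a was called lower (-4.75, SE 0.90). At 14 days 7 of 21 were called higher and 0 lower, beside 14.1% and 15.3% of all genes, with the largest values for the formins Diaph3 (10.52, SE 1.44) and Fmnl3 (8.13, SE 1.58) and for Myo5a, the myosin V that Spire proteins bind (6.92, SE 0.79), and the median was 0.72. At FDR under 0.1 alone 12 were higher and 5 lower. Diaph3 (-2.81, SE 0.76) and Fmnl3 (-2.78, SE 0.56) were called lower in aggregates than in dediHeps.

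Around Sox4, 6 of 18 other Sox genes were tested in the time course. At 1 day 1 was called higher and 3 lower, among the latter Sox5 (-3.69, SE 0.52) and Sox12 (-2.87, SE 0.57), beside 6.57% and 10.9% of all genes. Sox9, a marker of bile duct and progenitor cells, was called higher at 1 day (2.64, SE 0.48) and at 14 days (2.96, SE 0.48), and Sox11, a relative of Sox4 in the same subgroup, was called higher at 14 days (6.203, SE 0.97). Sox6 was called lower at 14 days (-2.88, SE 0.66). Unlike Sox4, Sox11 was called lower in CLiPs than in dediHeps (-3.27, SE 0.52, edgeR FDR 0.0144) and in dediHep-SOs than in dediHeps (-5.52, SE 0.53, edgeR FDR 0.000122). With verteporfin 0 of the 64 genes tested in these 5 lists were called by edgeR, beside 0.240% of all genes called higher and 0.0288% lower. Of these 64, 3 had an unadjusted p under 0.05.

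The patterns of the members over 16 conditions were compared as Pearson correlations of mean log2 CPM, given as a description: some conditions share cultures. Cpe and Slc25a24 were the most alike (r = 0.891), then Cpe and Spire1 (r = 0.884), and Akap12 and Sox4 the least (r = 0.274). Among 12791 genes with at least 10 CPM in a condition, those most like Cpe were Myo1c (r = 0.974), Sh3pxd2b (r = 0.972) and Tax1bp3 (r = 0.971). For Slc25a24 they were Clic1 (r = 0.978), Anxa2 (r = 0.977) and Iqgap1 (r = 0.976), for Akap12 Ilk (r = 0.967), Cep170 (r = 0.963) and Raet1e (r = 0.960), and for Spire1 Traf3 (r = 0.948), Cdk6 (r = 0.940) and Ywhah (r = 0.935). For Sox4 they were Tor4a (r = 0.983), the overlapping Gm26735 (r = 0.979) and Gm9844 (r = 0.978). Gm26735 had a mean of 0 CPM in FH, 4.53 ± 3.97 CPM at 1 day, 163 ± 40.3 CPM at 4 days and 233 ± 98.0 CPM at 7 days, with 126 ± 73.0 CPM in dediHeps.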

How the data were processed

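The authors sequenced transcript 3′ ends by CEL-Seq2 and deposited 1 table of UMI counts per Ensembl gene, whole numbers with no normalization. The submitters' processing notes name bcl2fastq 2.20, Bowtie2 2.3.1, HTSeq 0.6.0 and GRCm38. The table lists 46078 identifiers, 45143 of them paired with a symbol in GENCODE M21, and 0 columns were left out. Each column was matched to a sample by its label. Replicates differed by more than counting noise (chi-square per degree of freedom 5.62 to 68.0 over 54 pairs of libraries, genes with at least 10 counts in the pair).

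Counts were tested with the quasi-likelihood F-test of edgeR 4.0.16 (R 4.3.3) after filterByExpr (minimum count 10, minimum total 15), TMM and Benjamini-Hochberg adjustment over all genes of the fit, with the study's thresholds, FDR under 0.1 and absolute log2 fold change over 2. Each comparison was fitted on its 2 groups and the time course on 21 libraries. The SE of a fold change was derived from its F value. The members and lists were chosen with earlier results of these data known. Folds against groups at 0 use a floor of 3 counts over the group, a floor that in a single library is 0.775 to 3.48 CPM. Ratios carry exact 95% conditional binomial intervals for counting error. The fits were tested on simulated data.

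Genes named were the 5 members in all conditions, the 3 genes most like each, and list genes past both thresholds, up to 3 by smallest p per comparison (at 14 days by largest change). Nts, Pcsk1, Pcsk5, Pcsk6, Pcsk7, Furin, Slc25a36, Myo5a and Fmnl3 at 1 day and Chga and Pcsk1 against FIPC-SOs fall outside this rule and were named after their values were seen.

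Per the labels, 3 aggregates and 3 dediHep-SOs each came from a dediHep culture that was also measured in monolayer. Deviations from the group means of culture-matched libraries correlated at 0.197, 0.255 and 0.365 for aggregates and at -0.519, 0.0742 and 0.0304 for dediHep-SOs (9407 and 9452 genes). The culture was used as a block in an alternative fit.

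Alternatives were RLE factors, DESeq2 1.42.0, a fit without or with another filter on low counts, 1 fit of all 49 libraries, a correction for shared UMI sequences of 6 bases, other thresholds, replicate blocks and leaving out each library.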

Additional observations from a re-analysis of the deposited data

Results flagged for a closer look

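The difference between budding and spherical organoids was itself compared between the dediHep-derived and the intestinal organoids, in a fit of the 4 organoid conditions that was added after the counts were seen. Cpe was flagged because this difference of differences was -4.27 on the log2 scale (SE 0.82, 95% interval -6.03 to -2.52, edgeR FDR 0.00520 over 12379 genes): budding minus spherical was -4.29 for dediHep organoids and -0.05 for ISC-BO minus FIPC-SO. Leaving out single libraries gave -5.03 to -3.82, with an FDR of 0.000305 to 0.0185. The contrasts are unlike: ISC-BOs and FIPC-SOs also differ by adult against fetal origin, and the dediHep organoids by the Cdx2 retrovirus and medium. These cannot be told apart from budding in this term, here and for Spire1 below.

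Spire1 was flagged for a difference of differences of 1.63 (SE 0.50, interval 0.56 to 2.71, edgeR FDR 0.0537). ISC-BOs were 1.64 lower than FIPC-SOs on the log2 scale (-1.64, SE 0.32, edgeR FDR 0.00594), while dediHep organoids differed by 0.02. The FDR passed 0.1 when any of 5 single libraries was left out, up to 0.147. For Slc25a24 and Sox4 the same term was -0.61 (FDR 0.398) and -0.51 (FDR 0.371).

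The members were tested for a library far from the rest of its group only in dediHeps (n = 5) and ISC-BOs (n = 4). Of these 9 sets, each 1 gene in 1 condition, 0 were past the limit. Conditions with 2 or 3 libraries were not tested. The widest gap was that of Akap12 in dediHeps, where library 1 at 862 CPM lay 0.638 of the group's range above the next.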

How the results depend on the processing

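The number of members called stayed the same in the 6 tested comparisons under all alternatives but 1: at FDR under 0.05 and absolute log2 fold over 1 it was 2 in place of 1 in dediHep-SO vs dediHep and in dediHep-SO vs FIPC-SO. The number of all genes called moved more, and the cause was not tested. For verteporfin vs DMSO it was 28, and 90 without a low-count filter, 2 with at least 0.5 CPM in 2 libraries, 0 with all libraries in one fit, and 33 to 106 leaving out single libraries, which leaves 1 library in an arm. For CLiP vs dediHep it was 352, and 537 by DESeq2, 714 without a filter, 1169 with all libraries and 109 to 488 leaving out single libraries, lowest without CLiP library 1. For dediHep-SO vs dediHep it was 1005, and 1652 without a filter and 1678 with all libraries. For dediHep-BO vs dediHep-SO it was 1275, and 2385, 2292 and 1953 without a filter, at 0.5 CPM and with all libraries, and 1234 to 2108 leaving out libraries, highest without dediHep-SO library 3. For dediHep-SO vs FIPC-SO it was 1034, and 2052, 1908 and 1558 under the same settings and 1023 to 1716 leaving out libraries, again highest without dediHep-SO library 3. For dediHep-BO vs ISC-BO it was 345, and 798 without a filter and 634 at 0.5 CPM.

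With the replicate number as a block 59 genes were called for verteporfin vs DMSO. Cpe was then at -0.93 with an edgeR FDR of 0.00219, past the FDR but not the fold threshold. Same-numbered libraries of this comparison deviated together (r = 0.462). The labels give them a shared number and do not say whether they came from the same run of the experiment. The block by number or by culture changed no other call of a member. Small differences changed sign. Spire1 in dediHep-BO vs dediHep-SO was -0.0024 at 0.5 CPM, -0.0066 with all libraries and -0.21 to 0.30 leaving out libraries. Leaving out libraries gave -0.36 to 0.052 for Sox4 in the same comparison, -0.38 to 0.11 for Sox4 with verteporfin, -0.051 to 0.38 for Cpe in CLiPs and -0.28 to 0.054 for Slc25a24 in dediHep-SO vs dediHep.

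Rises against FH rest on few counts. At 1 and 14 days Cpe was 13.32 and 14.07 on the log2 scale, 13.55 and 14.22 with all libraries, and 13.65 and 14.58 corrected for shared UMI sequences, which also gave 7.58 for Akap12 and 9.37 for Sox4 at 14 days. Leaving out libraries gave 3.49 to 4.13 and 8.73 to 9.37 for Sox4, 6.59 to 7.06 and 7.34 to 7.80 for Slc25a24, and 7.22 to 7.42 for Akap12 at 14 days. Of the 15 genes most like a member, 9 were again among the 3 most alike with a prior count of 0.5. Of all alternatives, 144 of 170 counts stayed within a set factor of the reported count. For values without a test, 334 of 345 kept their sign and moved by less than the pooled SD between libraries. For tested values, 358 of 370 kept their sign and whether they passed both thresholds, although their size and FDR could move.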
